A study of Chlamydomonas reinhardtii with 9 samples.

Results

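The flanks of long peak-free stretches are the chromosome segments that border the longest intervals without any ChIP-seq peak. Peaks of 6 lists were merged, and every interval of at least 100 kb between consecutive merged peaks on 1 of the 17 nuclear chromosomes, other than chromosome 15, was taken as a stretch. A flank is the 100 kb outside either edge of a stretch, and its members are the peaks whose midpoints lie in it. The rule gave 14 stretches on 12 chromosomes, 28 flanks and 2632 member peaks of 117666 in all 6 lists. The rest of the same 12 chromosomes, with the stretches left out, held 84974 peaks and served as the background. The stretches, and with them the members, were chosen by the positions of these same peaks. Flank density over the rest is therefore tested only where a library had no part in the choice. Tests of shares, overlaps, neighbours and single flanks used flanks found from all 6 lists, so they are not independent of that choice.

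The series mapped HA-tagged proteins on the chromatin of the green alga Chlamydomonas reinhardtii by ChIP-seq, in which DNA crosslinked to a protein is recovered with an antibody, here against HA, and sequenced. It holds 3 libraries of a line called PAF1-HA, 3 of a line called SKIP-HA and 3 wild-type libraries, all in CC5325. Wild-type peaks are not analysed here, and no value has a background from untagged cells beside it. The labels name the first group paf1 and the next skip, while the design text speaks of HA-tagged materials, and they do not say whether a mutation is also present or how many clones were used. In both tagged groups the label fields of replicate 3 differ from those of replicates 1 and 2, so values are also given with these kept apart. The submitters' processing notes name MACS3, a peak caller, for replicates 1 and 2 and not for replicate 3, and whether the lists were called differently is not known from the sources used here. Separate cultures are not stated for the replicates, and p-values therefore reflect only how these libraries differ from each other, possibly for technical reasons.

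PAF1 is a subunit of the PAF1 complex, which in yeast and animals travels with RNA polymerase II during elongation and is needed for histone marks laid down over transcribed genes. SKIP belongs to the SNW-domain proteins, which in yeast, plants and animals act in splicing and in transcription. ChIP peaks of such proteins are therefore usually found over transcribed genes, and the ends of a long peak-free interval are where calls of this kind begin again. A peak list records calls only, so the absence of a peak is not the absence of protein, and genes, repeats and assembly gaps in the stretches were not analysed here.

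The PAF1-HA lists held 16329, 16998 and 17645 peaks in replicates 1, 2 and 3, and the SKIP-HA lists held 19709, 22305 and 24680. Nearly all intervals were 400 bp wide, and no score, fold or read count came with them, so the read depth is unknown. Because every SKIP-HA list was longer than every PAF1-HA list, the groups are compared below as shares of a library's own peaks or as ratios to its own background.

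The 14 stretches added up to 2046.7 kb and ran from 105.643 to 220.674 kb, with a median of 128.568 kb. Positions are 1-based in the build of the lists, which is not given in the sources used here, and a letter marks the first and the next stretch of a chromosome that has more than 1. The longest was stretch 1a on chromosome 1, positions 1085071 to 1305744. Stretch 3 on chromosome 3, positions 6979068 to 7171467, was 192.4 kb long. Stretch 4 on chromosome 4, positions 884340 to 1065926, was 181.587 kb long. These leading stretches lie on 3 different chromosomes. Stretch 17 on chromosome 17 (6031310 to 6205684) had 174.375 kb, stretch 7 on chromosome 7 (3028668 to 3202035) had 173.368 kb, and stretch 12a on chromosome 12 (6721363 to 6885715) had 164.353 kb. Stretch 1b on chromosome 1 (7205623 to 7335877) had 130.255 kb, and stretch 12b on chromosome 12 (7955347 to 8082227) had 126.881 kb. Stretch 11 on chromosome 11 (2924185 to 3047318) had 123.134 kb, and stretch 14 on chromosome 14 (2175118 to 2294825) had 119.708 kb. Only chromosomes 1 and 12 held a pair of stretches. The stretches lay between 14.6% and 88.6% of the way along the span of peaks of their chromosomes, and 6 of the 14 lay in its middle 50 percent.

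Stretches just inside the 100 kb minimum did not stand apart in length from intervals just below it. The shortest accepted were stretch 16 on chromosome 16 (3324618 to 3430260) with 105.643 kb, stretch 13 on chromosome 13 (4312308 to 4419265) with 106.958 kb and stretch 9 on chromosome 9 (1626437 to 1734910) with 108.474 kb. The longest rejected were 96.104 kb on chromosome 10, 92.294 kb on chromosome 12 and 91.529 kb on chromosome 5. A library had on average 28.5, 44.7 and 31.8 peaks in both flanks together of stretches 16, 13 and 9, against 15.8, 18.5 and 32.8 beside the rejected intervals on chromosomes 10, 12 and 5. By length, the minimum cuts through a continuous range. Flank counts were lower than beside the accepted stretches at the rejected intervals on chromosomes 10 and 12, and not on chromosome 5.

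The 28 merged regions that form the edges were more often SKIP-HA regions than PAF1-HA regions. Of these, 1 held PAF1-HA peaks only, 14 held SKIP-HA peaks only and 13 held peaks of both. Among merged regions in the rest, 14.5% held PAF1-HA peaks only, 34.8% SKIP-HA peaks only and 50.7% both. An edge was formed by a peak of a single library in 10 cases and by peaks of all 6 libraries in 5. The PAF1-HA libraries had a peak at 11, 11 and 11 of the 28 edges, and the SKIP-HA libraries at 17, 21 and 16, without overlap of the groups. The longer SKIP-HA lists had more peaks with which to end a stretch, so these counts are a description of how the edges arose.

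The 5 edges with all 6 libraries are places where each list began or ended at nearly the same point. They were the left edges of stretches 1a, 4, 6 and 9 and the right edge of stretch 6, each a merged region of 419 to 637 bp. At the left edge of 1a (1084652 to 1085070) the nearest peak midpoint lay 0.212, 0.216 and 0.204 kb from the edge in the PAF1-HA libraries and 0.219, 0.219 and 0.2 kb in the SKIP-HA libraries. All 6 lists thus began at nearly the same point.

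Other edges were formed by all replicates of one protein and by none of the other. The right edge of stretch 16 (3430261 to 3430754) had peaks of all 3 SKIP-HA libraries at 0.226, 0.2 and 0.294 kb, while the nearest PAF1-HA peaks lay at 82.5, 84.6 and 82.9 kb. The left edge of stretch 3 (6978658 to 6979067) had peaks of all 3 SKIP-HA libraries at 0.2, 0.21 and 0.201 kb, and the nearest PAF1-HA peaks lay at 50.3, 54.2 and 50.3 kb. At both edges the SKIP-HA region recurred in every replicate and no PAF1-HA replicate had a call near it. Most of the interval behind these regions held no SKIP-HA peak either, as 75.618 kb of it in 16 right and 49.639 kb in 3 left were free of peaks in all 6 lists. The right edge of stretch 12b (8082228 to 8082814) was another of this kind, with PAF1-HA peaks first at 13.5, 22.8 and 5.78 kb. Over all 28 edges the median distance to the nearest peak was 5.42, 1.54 and 1.22 kb in the PAF1-HA libraries and 0.365, 0.239 and 0.479 kb in the SKIP-HA libraries. Every PAF1-HA library thus had a larger median distance than every SKIP-HA library. Each edge is the first peak of any list, and the longer SKIP-HA lists formed more of the edges. The distances are not scaled for the length of the lists, so the direction is partly set by the rule and the medians are a description.

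**Figure D1:**
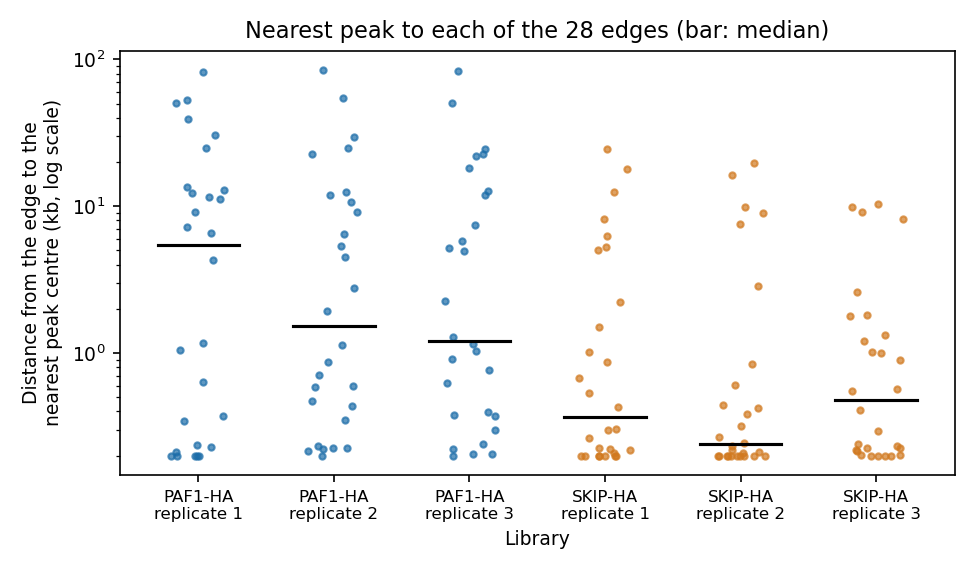
Distance in kb (log axis) from each of the 28 edges to the nearest peak midpoint, for each PAF1-HA library and each SKIP-HA library, with the median of each. The PAF1-HA medians lie between 1.22 and 5.42 kb and the SKIP-HA medians between 0.239 and 0.479 kb, and PAF1-HA points reach 84.6 kb. Distances are not scaled for the length of the lists.

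Peaks were sparser in the flanks than in the rest of the same chromosomes, in each of the 6 libraries. The PAF1-HA libraries had 115, 133 and 131 peaks per Mb in flanks and 152, 159 and 165 in the rest. The SKIP-HA libraries had 170, 186 and 205 peaks per Mb in flanks and 183, 207 and 230 in the rest. Flank over rest was 0.795 ± 0.039 in PAF1-HA and 0.907 ± 0.017 in SKIP-HA (SD, n = 3 each). The lowest SKIP-HA ratio, 0.893, lay above the highest PAF1-HA ratio, 0.836. The difference of the log2 ratios, PAF1-HA minus SKIP-HA, was -0.19, given as a description. Flank over rest was 0.796 in PAF1-HA and 0.913 in SKIP-HA within replicates 1 and 2, and 0.793 in PAF1-HA and 0.893 in SKIP-HA in replicate 3.

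A library that had no part in finding the stretches showed the same depletion. For this check the stretches were found from 5 libraries and the density was measured in the sixth, each in turn. Flank over rest was 0.750, 0.835 and 0.793 in the PAF1-HA libraries and 0.896, 0.895 and 0.887 in the SKIP-HA libraries. The mean log2 ratio was -0.25 ± 0.11 (SD over 6 libraries), below 0 in 6 of 6. A two-sided exact sign-flip permutation test over libraries gave p = 0.03125, the smallest that 6 libraries allow, and 0.0625 after Benjamini-Hochberg adjustment over 4 such tests, which is above 0.05. Between the groups the left-out log2 ratios differed by -0.17, PAF1-HA minus SKIP-HA, without overlap and with an exact permutation p of 0.1 (0.125 adjusted over 5 contrasts). The 6 sets of stretches share most of their positions, so the test speaks of libraries and not of other places in the genome.

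The stretches themselves were nearly empty in the library left out. Such stretches covered between 2047 and 2158 kb and held 3, 0 and 0 peaks of the left-out PAF1-HA libraries and 4, 6 and 4 peaks of the left-out SKIP-HA libraries. The mean density inside was 0.704% of that in the rest. Stretches found from the 3 SKIP-HA lists alone held 3, 0 and 0 PAF1-HA peaks, and PAF1-HA density in their flanks was 0.793 ± 0.043 of the rest. Stretches found from the 3 PAF1-HA lists alone were more numerous, 16 on 14 chromosomes, and held 19, 19 and 22 SKIP-HA peaks, with a SKIP-HA flank density of 0.932 ± 0.013 of the rest. Inside stretches found from one protein, the other stood at 0.0032 (PAF1-HA) and 0.037 (SKIP-HA) of its density in the rest.

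The depletion was deepest next to the edge and was smaller beyond 60 kb. From 0 to 20 kb, density over rest was 0.581 ± 0.035 in PAF1-HA and 0.762 ± 0.030 in SKIP-HA (SD, n = 3 each). From 20 to 40 kb it was 0.735 ± 0.081 in PAF1-HA and 0.813 ± 0.037 in SKIP-HA, and from 40 to 60 kb it was 0.813 ± 0.085 in PAF1-HA and 0.915 ± 0.044 in SKIP-HA. From 60 to 80 kb it was 0.961 ± 0.017 in PAF1-HA and 1.03 ± 0.074 in SKIP-HA, and from 80 to 100 kb it was 0.886 ± 0.0088 in PAF1-HA and 1.02 ± 0.073 in SKIP-HA. With left-out libraries, density was below the rest in 6 of 6 libraries in each of the 3 bins up to 60 kb, with geometric means of 0.644, 0.769 and 0.859 and an exact sign-flip p = 0.03125 each, or 0.0521 after Benjamini-Hochberg adjustment over the 5 bins. In the bins from 60 to 80 and from 80 to 100 kb it was below the rest in 5 and 4 of 6 libraries (exact sign-flip p = 0.5 and 0.15625). In both of these bins the 3 PAF1-HA libraries were still below the rest by the stretches of all 6 lists. Past the flanks the curve was uneven, with 1.22 of the rest at 160 to 180 kb and 0.758 at 240 to 260 kb, a dip as deep as that at 20 to 40 kb.

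At finer scale the first 5 kb held the edge itself. Peaks there stood at 1.16 of the rest over all 6 libraries, as each edge is a peak by construction. The next bins, 5 to 10, 10 to 15 and 15 to 20 kb, stood at 0.438, 0.600 and 0.490 of the rest. Density was thus lowest not at the edge itself but in the 15 kb behind its peaks.

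**Figure D2:**
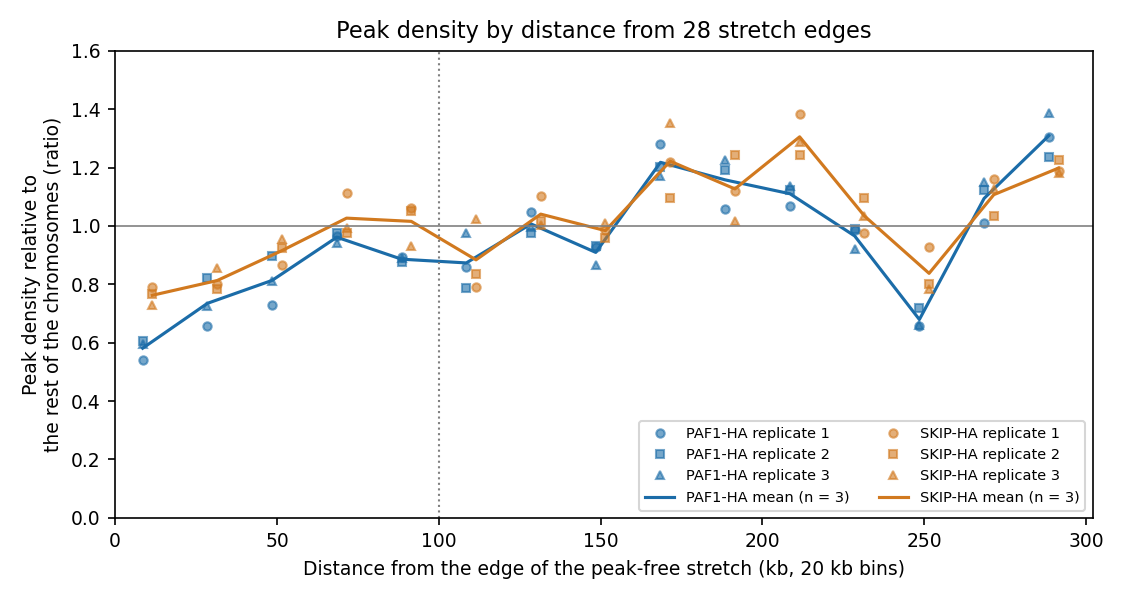
Peak density over the rest of the same chromosomes against distance from the edge in kb, per library and as the group means (n = 3 each). The curves start at 0.581 (PAF1-HA) and 0.762 (SKIP-HA) at 0 to 20 kb and reach 0.961 and 1.03 at 60 to 80 kb.

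In 5 flanks there was a further interval of 50 to 100 kb without any peak. Without them the lower density was smaller in PAF1-HA and gone in SKIP-HA. The 5 flanks are the left flank of stretch 4, both flanks of stretch 6 and the right flanks of stretches 16 and 17. Such intervals took 261.291 kb or 9.33% of the flanks, against 770.924 kb or 0.994% of the rest. Without these 5 flanks, an alternative chosen after seeing the data that by construction takes out sparse flanks, density over rest was 0.911 ± 0.050 in PAF1-HA and 1.02 ± 0.0072 in SKIP-HA. The mean log2 ratio of left-out libraries was then -0.069 (exact sign-flip p = 0.15625). With all 28 flanks kept and the length of such intervals taken out of flanks and rest alike, density over rest was 0.868 ± 0.043 in PAF1-HA and 0.990 ± 0.019 in SKIP-HA. The depletion close to the edge persisted in the 23 other flanks. At 0 to 20 kb PAF1-HA stood at 0.626 ± 0.028 and SKIP-HA at 0.791 ± 0.030 of the rest. In the following bins of 20 kb, going outward, PAF1-HA stood at 0.835, 0.954, 1.12 and 1.01 of the rest. SKIP-HA stood at 0.914, 1.08, 1.16 and 1.16 in the same bins. Farther out, both groups thus came to stand above the rest, in flanks from which sparse ones had been taken out. In 5 of 28 flanks, then, a long stretch had another long peak-free interval within 100 kb.

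Single flanks spanned a wide range. A library had on average 2.83 peaks in the emptiest flank and 26.3 in the fullest, with a median of 16.25 over the 28. Against the rest of their own chromosome 18 of 28 flanks were lower, 10 of them in all 6 libraries, and 4 were higher in all 6 libraries. Windows of 100 kb in the rest also ranged widely, from a mean of 1.67 to 41.8 peaks. How many of them were lower or higher than their chromosome was not counted, so the flank counts are a description.

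The 5 sparsest flanks each had few peaks in every library. The right flank of stretch 16 (3430261 to 3530260) had 2, 2 and 3 PAF1-HA peaks and 4, 2 and 4 SKIP-HA peaks, 0.146 of the density of its chromosome. On the left of stretch 4 (784340 to 884339) there were 3, 2 and 4 PAF1-HA peaks and 4, 6 and 6 SKIP-HA peaks. On the left of stretch 11 there were 3, 3 and 2 PAF1-HA peaks and 9, 6 and 10 SKIP-HA peaks. The counts of the groups overlapped in the first of these flanks, met at 4 peaks in the next and were apart in the last. The left flank of stretch 6 (4307112 to 4407111) had 5, 5 and 5 PAF1-HA peaks and 12, 9 and 9 SKIP-HA peaks, and the right flank of stretch 17 (6205685 to 6305684) had 4, 6 and 7 PAF1-HA peaks and 11, 7 and 10 SKIP-HA peaks.

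By the mean over the 6 libraries, the densest flanks were richer in peaks than their chromosomes. The left flank of stretch 12b (7855347 to 7955346) had 20, 21 and 22 PAF1-HA peaks and 33, 30 and 32 SKIP-HA peaks, 1.44 of its chromosome. The left flank of stretch 16 (3224618 to 3324617) had 14, 19 and 14 PAF1-HA peaks and 35, 30 and 42 SKIP-HA peaks, 1.33 of its chromosome. The right flank of stretch 12a (6885716 to 6985715) had 17, 23 and 26 PAF1-HA peaks and 20, 33 and 31 SKIP-HA peaks. Counts of the groups, which also carry the length of the lists, were apart in both left flanks and overlapped in 12a right. The right flank of stretch 4 (1065927 to 1165926) had 16, 13 and 18 PAF1-HA peaks and 28, 35 and 36 SKIP-HA peaks. The right flanks of stretches 7 and 13 followed, tied at a mean of 22.7 peaks. Of these flanks, 16 left and 4 right each had 2 libraries below their chromosome and 7 right had 1. In 12b left, 12a right and 13 right 0 libraries were below it.

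The sides of a stretch differed in density at some stretches and were close at others. Stretch 16 had the emptiest flank on its right and one of the fullest on its left, and stretch 4 had a sparse left and a dense right flank. Mean peaks on the left and right were close in stretch 6 (7.5 and 7.83) and in stretch 13 (22 and 22.7). Over the 14 stretches the mean peak counts of the left and right flanks had Pearson's r of -0.373 and Spearman's rho of -0.379, given as a description since both sides share libraries and background, and r was -0.310 without the 2 stretches farthest from the median on the left. Left flanks held 15.1 and right flanks 16.2 peaks on average.

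**Figure D3:**
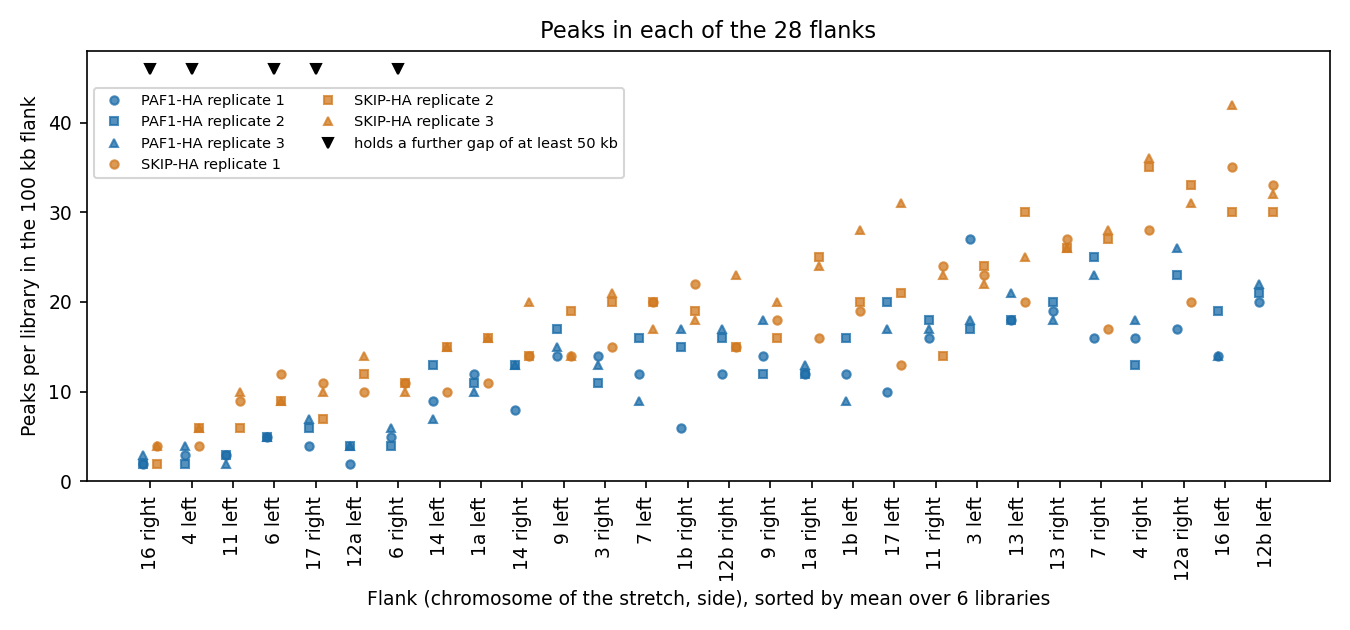
Number of peaks of each PAF1-HA and SKIP-HA library in each of the 28 flanks, ordered by the mean over the 6 libraries. Flank means run from 2.83 peaks (16 right) to 26.3 peaks (12b left), and flanks with a further interval of at least 50 kb without a peak are marked.

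The flanks held a smaller share of PAF1-HA peaks than of SKIP-HA peaks. The PAF1-HA libraries had 2.66%, 2.93% and 2.78% of their peaks on the 12 chromosomes in flanks, against 3.24%, 3.15% and 3.12% in the SKIP-HA libraries. No PAF1-HA library reached the lowest SKIP-HA value. PAF1-HA libraries averaged 2.79% ± 0.13, against 3.17% ± 0.059 in SKIP-HA libraries (SD, n = 3 each), a ratio of 0.881 and a difference of -0.378 percentage points. The two-sided exact permutation test gave p = 0.1, the smallest that 3 against 3 libraries allow. The flanks were found from these same lists, and the longer SKIP-HA lists formed more of the edges. This p therefore cannot separate a difference between the groups from the choice of flanks, and the shares are a description. Shares were not measured in left-out libraries, where the density difference was -0.17 on the log2 scale. Within replicates 1 and 2 the difference was -0.397 points and in replicate 3 it was -0.339 points. Counted over peaks, 1060 of 2632 flank peaks (40.3%) came from PAF1-HA lists, against 43.4% of the peaks in the rest.

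The difference in share was widest in the 20 kb next to the edge. There the PAF1-HA libraries placed 0.408% ± 0.024 of their peaks and the SKIP-HA libraries 0.533% ± 0.021, a ratio of 0.765 or -0.39 on the log2 scale, and the groups did not overlap. The ratios of PAF1-HA to SKIP-HA in the next 4 bins were 0.907, 0.892, 0.940 and 0.876, with overlap between the groups in all but the last. None of the 5 exact permutation tests passed after Benjamini-Hochberg adjustment (adjusted p from 0.25 to 0.3), which 3 against 3 libraries could not reach. The bins also lie in flanks found from the same lists, so these tests decide nothing and the ratios are a description. With the edge regions left out the log2 ratio from 0 to 20 kb was -0.39, and with the 5 flanks with further intervals left out it was -0.33. PAF1-HA lists supplied 37.0% of the peaks at 0 to 20 kb and 40.2% to 41.9% in the bins from 20 kb on.

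Sparse windows elsewhere also leaned to SKIP-HA. The windows of 100 kb in the rest were sorted into 4 classes of 191 by mean peak number, and the PAF1-HA share over the SKIP-HA share was 0.931, 0.996, 0.987 and 1.06 from the sparsest to the densest class. Flanks whose means fell in the same ranges (10, 8, 4 and 6 flanks) had ratios of 0.750, 0.917, 1.05 and 0.838. The flanks were thus lower than the windows in 3 of the 4 classes, and these class values carry no test.

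In single flanks the PAF1-HA share was below the SKIP-HA share in 20 of 28. The flanks and the 100 kb windows of the rest of all 17 chromosomes were tested together with limma on log2 shares with 0.5 peaks added, over the 1065 units with a mean of at least 5 peaks. Of the 28 flanks 26 passed this filter, and the left flank of stretch 4 and the right flank of stretch 16 did not. The PAF1-HA share was the lower one in 18 of the 26 flanks (69.2%), against 51.5% of all units. PAF1-HA was lower in 2 flanks and higher in 0 at an adjusted p under 0.05, against 0.563% of all units called lower and 0.0939% called higher. At an unadjusted p under 0.05 it was lower in 6 flanks and higher in 0, against 8.45% and 5.73% of all units. Without overlap between the groups' shares, PAF1-HA was lower in 8 of the 26 flanks and higher in 0, against 9.86% lower and 9.95% higher of all units. The median log2 difference was -0.13 over the 26 flanks and -0.0021 over all units. The flanks in this test were found from the same 6 lists, so the calls describe them.

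The 2 called flanks were both sparse ones on the left side of a stretch. The left flank of stretch 12a (6621363 to 6721362) had 2, 4 and 4 PAF1-HA peaks and 10, 12 and 14 SKIP-HA peaks. Its log2 difference was -1.36 with a standard error of 0.22 and an adjusted p of 0.0132 (limma, Benjamini-Hochberg over 1065 units). The groups did not overlap. The left flank of stretch 11 (2824185 to 2924184), with 3, 3 and 2 PAF1-HA peaks and 9, 6 and 10 SKIP-HA peaks, had a log2 difference of -1.08 with a standard error of 0.23 and an adjusted p of 0.0467. Neither call held throughout: 12a left lost it without any 1 of the SKIP-HA replicates (adjusted p 0.148, 0.0589 and 0.114 without replicates 1, 2 and 3) and with a trend on the mean (0.0579). The call of 11 left was lost without any 1 replicate that left it in the test, and it did not pass the filter without SKIP-HA replicate 1 or 3. Adjusted p ran from 0.00266 to 0.148 over 12 alternatives for 12a left and from 0.0214 to 0.175 over 10 for 11 left, and neither flank reaches a mean of 10 peaks.

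Both called flanks are among those with few peaks, where 1 peak moves the share most. The lowest difference after these, in the dense left flank of stretch 16, was -0.78 on the log2 scale with a standard error of 0.21, and its limma adjusted p was 0.112. The 3 highest were 0.36 in the left flank of stretch 9 (14, 17 and 15 PAF1-HA peaks against 14, 19 and 14 SKIP-HA peaks, adjusted p 0.463), 0.23 in the right flank of stretch 7 and 0.20 in the left flank of stretch 3. These positive differences did not pass the test, and the last had a value of -0.029 without PAF1-HA replicate 1.

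**Figure D4:**
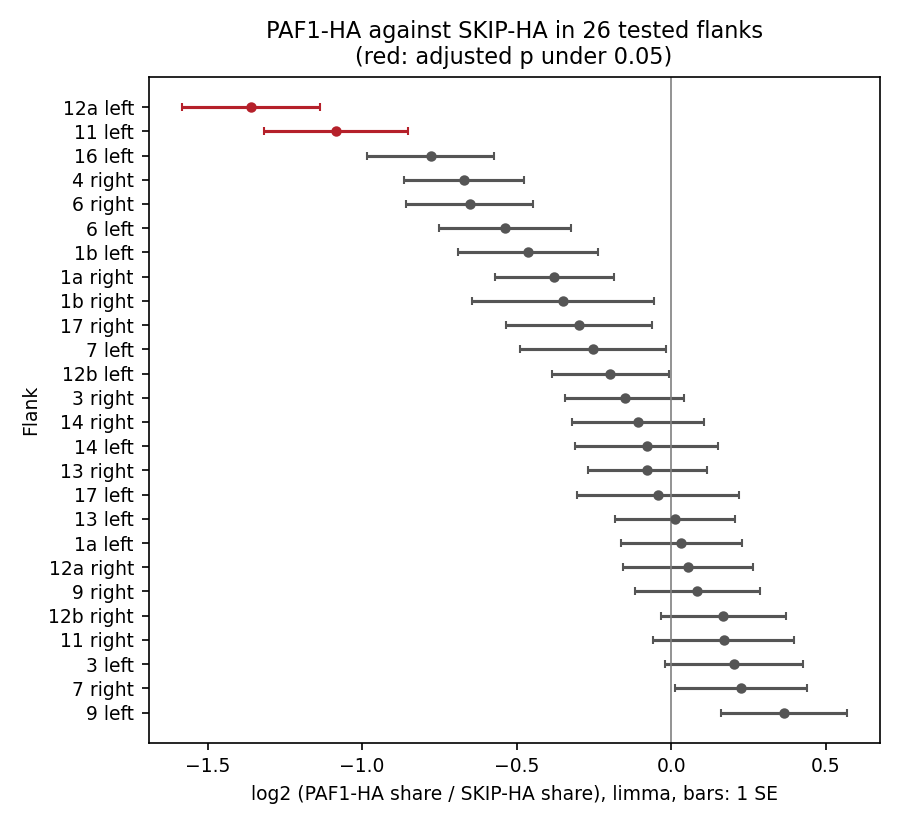
Log2 difference in share, PAF1-HA over SKIP-HA, with its standard error for each of the 26 flanks in the limma test. Values run from -1.36 (12a left) to 0.36 (9 left), and the 2 flanks past an adjusted p of 0.05 are marked.

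In each SKIP-HA library a smaller share of the peaks overlapped a PAF1-HA peak in flanks than in the rest, while PAF1-HA peaks differed little. Of flank peaks, 79.8%, 83.1% and 80.1% of PAF1-HA peaks overlapped a SKIP-HA peak by at least 1 bp, against 82.8%, 82.6% and 80.9% in the rest. Of SKIP-HA peaks, 60.2%, 60.2% and 55.0% overlapped a PAF1-HA peak in flanks, against 71.0%, 67.2% and 65.4% in the rest. Flank minus rest was -1.13 ± 1.75 points in PAF1-HA and -9.43 ± 2.11 points in SKIP-HA (SD, n = 3 each). The difference over the 6 libraries, -5.28 points, had an exact sign-flip p of 0.0625 (0.0833 adjusted over 4 tests). An overlap of a PAF1-HA and a SKIP-HA peak counts in libraries of both groups, so the 6 values are not independent. The contrast between the groups, 8.30 points, had an exact permutation p of 0.1 (0.125 adjusted over 5 contrasts), without overlap of the groups. The flanks were found from these same lists, and 14 edge regions held SKIP-HA peaks only against 1 with PAF1-HA peaks only. Neither p can therefore separate a difference from the choice of flanks, and the values are a description. With the edge regions left out the contrast was 7.93 points. Without PAF1-HA replicate 3 the contrast was 4.39 points (exact p = 0.3), and without SKIP-HA replicate 3 the difference over libraries was -3.09 points (exact p = 0.4375). Within replicates 1 and 2 flank minus rest was -1.29 points in PAF1-HA and -8.91 in SKIP-HA, and in replicate 3 it was -0.802 in PAF1-HA and -10.5 in SKIP-HA. The PAF1-HA density in flanks, which sets how many PAF1-HA peaks a SKIP-HA peak can meet, was lower too (0.795 of the rest), and its part in this difference was not tested.

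Overlap between replicates of a group was lower in flanks than in the rest in the 3 SKIP-HA libraries and in 1 of 3 PAF1-HA libraries. The share of peaks with an overlapping peak in another library of the same group was 71.0% ± 1.2 in flanks and 70.4% ± 2.5 in the rest for PAF1-HA. For SKIP-HA it was 68.2% ± 3.1 in flanks and 70.8% ± 4.6 in the rest. Flank minus rest was 0.59 ± 1.42 points in PAF1-HA and -2.63 ± 1.53 points in SKIP-HA, a contrast of 3.22 points without overlap of the groups (exact permutation p = 0.1, or 0.125 adjusted over 5 contrasts). The difference over 6 libraries was -1.02 ± 2.20 points, with an exact sign-flip p of 0.3125, and its sign turned under 5 of the 14 alternatives. An overlap counts in both libraries that share it, and the flanks were found from these same lists, so the values are a description.

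In each library a smaller share of peaks had a close neighbour in flanks than in the rest. The share of peaks with another peak centre of the same library within 1 kb was 43.8%, 47.3% and 41.8% in PAF1-HA flanks, against 49.7%, 50.4% and 50.5% in the rest. In SKIP-HA flanks it was 45.3%, 49.2% and 53.2%, against 50.8%, 53.1% and 55.7% in the rest. All 6 differences had the same sign. The mean difference was -4.91 ± 2.27 points over 6 libraries, and -3.88 points with the edge regions left out. A peak at an edge has no neighbour on the side of the stretch by construction, so the direction is partly set by the rule and the values are a description. The lower density of the flanks moves with it, and its part was not tested. The groups overlapped in this difference. Within replicates 1 and 2 it was -4.50 points in PAF1-HA and -4.68 in SKIP-HA, and in replicate 3 it was -8.65 in PAF1-HA and -2.44 in SKIP-HA.

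**Figure D5:**
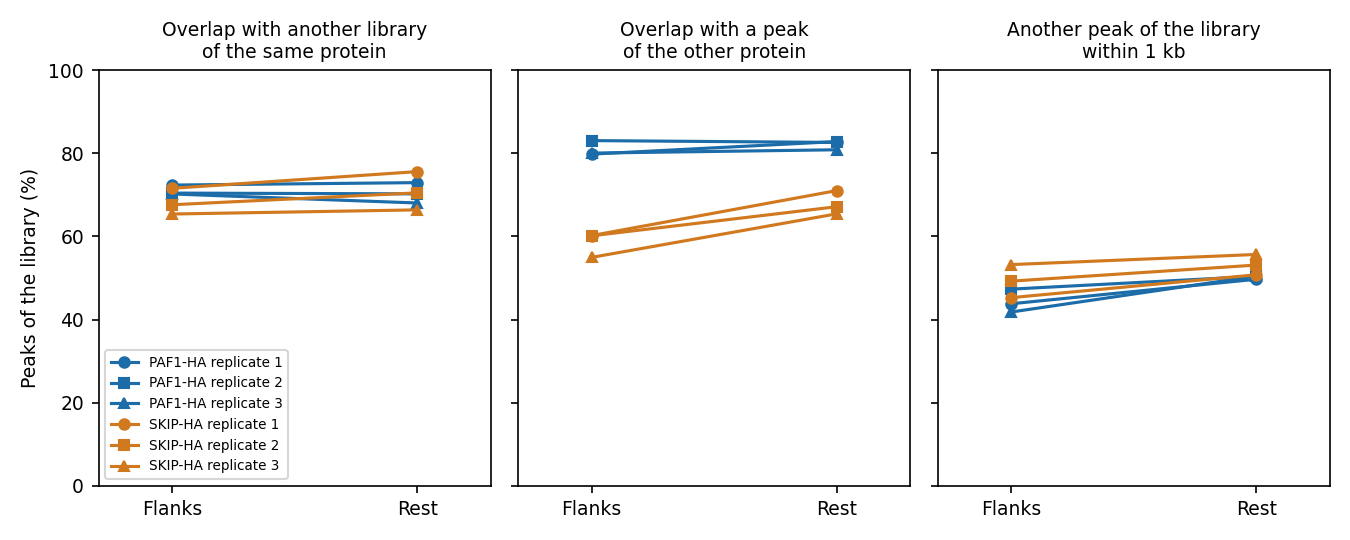
Percent of each library's peaks, in flanks and in the rest, that meet each of 3 measures. These are overlap with a replicate of the same group, overlap with the other protein, and a neighbour within 1 kb. A line joins the flank and rest values of each library. For overlap with the other protein, flank minus rest averages -1.13 points in PAF1-HA and -9.43 points in SKIP-HA.

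Merged over the 6 lists, the flanks held 910 regions, or 325 per Mb, against 26697 regions, or 344 per Mb, in the rest. Regions with SKIP-HA peaks only made up 44.3% of the flank regions and 34.8% of those in the rest. Regions with PAF1-HA peaks only made up 12.4% of the flank regions and 14.5% of those in the rest, and regions with both made up 43.3% in flanks and 50.7% in the rest. Of the SKIP-HA-only regions, 276 of 403 in flanks and 6545 of 9292 in the rest came from a single library. Regions seen in all 6 libraries were 58 of 910 (6.37%) in flanks and 8.05% of those in the rest. These shares over regions carry no test, as regions are not replicates.

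Regions found in every replicate of one group and in none of the other were few and uneven. The flanks held 4 regions with all 3 PAF1-HA libraries and no SKIP-HA library (0.440%, against 0.858% in the rest). They held 28 with all 3 SKIP-HA libraries and no PAF1-HA library (3.08%, against 2.51% in the rest). The PAF1-HA region closest to an edge lay 24.6 kb out, on chromosome 9 (1601393 to 1602231). The SKIP-HA regions began at the edge itself, and 3 of them formed edges (3 left, 16 right and 12b right). In the first 20 kb, 8 of 145 regions (5.52%) were PAF1-HA only and 69 (47.6%) SKIP-HA only, while 14 (9.66%) held all 6 libraries, among them the 5 edges described above. From 20 to 100 kb the share with all 6 libraries lay between 4.06% and 7.51%, the share with PAF1-HA only between 11.7% and 15.3%, and the share with SKIP-HA only between 40.7% and 48.6%. The SKIP-HA-only share of the first 20 kb thus lay within the range of the other bins.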

How the data were processed

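Members, lists and tests were chosen with earlier results of these data known. The deposited values are peak intervals (start and end, no score), 1 list per library. The tools named are Bowtie2 and HOMER (9 samples) and MACS3 (4 samples), per the submitters' processing notes. Versions, build, calling threshold and control were not given in the sources used here. Overlaps and exact tests used Python 3.11.15, numpy 2.4.6, pandas 2.3.3 and scipy 1.17.1, plots matplotlib 3.10.9, and the test of flanks limma 3.58.1 in R 4.3.3. Merging joined peaks of the 6 lists that shared at least 1 bp, and a peak was placed by its midpoint. Limma used log2 shares with 0.5 added and units with a mean of at least 5 peaks, and was tested on simulated data. Flanks named are the 5 densest, the 5 sparsest, those called and the 3 highest and 3 lowest log2 differences. Stretches named are the 10 longest and the 3 on either side of the minimum. Edges, regions and flanks named outside these rules were chosen after their values were seen. Alternatives covered stretch length, flank width, edge regions, chromosome 15, shared peaks, overlap, left-out replicates and limma's settings. Leaving out flanks with further intervals, own-chromosome backgrounds and stretches from one group were chosen after seeing the data. Sequences were not analysed here.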

Additional observations from a re-analysis of the deposited data

How the results depend on the processing

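The smaller PAF1-HA share kept its direction in all 15 alternatives (-0.447 to -0.187 points), and so did the larger density deficit of PAF1-HA in 13 (-0.23 to -0.11, log2). The log2 density of flanks over rest, -0.24 as reported, was -0.45 with flanks of 50 kb, -0.39 with chromosome 15 kept and -0.053 without the 5 flanks with further intervals, where left-out libraries gave -0.069. Leaving out 1 replicate gave -0.32 to -0.22 for left-out libraries (exact p of 0.0625, the smallest that 5 libraries allow) and -5.44 to -4.16 points for neighbours. A minimum of 200 kb leaves 1 stretch and gave -3.64 points for neighbours, 3.20 for overlap with the other protein, 8.51 for overlap between replicates (exact p = 0.03125) and log2 share ratios of 0.21 at 20 to 40 kb and 0.51 at 80 to 100 kb. A minimum of 50 kb gave 0.037 at 60 to 80 kb and -1.12 points for overlap between replicates (exact p = 0.03125). That overlap was 0.980 with flanks of 50 kb, 0.544 with chromosome 15 kept, 1.09 with peaks shared by at least 2 libraries and 0.223 with 200 bp of overlap. Without edge regions, overlap with the other protein was -5.50 points (exact p = 0.03125). The overlap tests under these alternatives also used flanks found from the lists they test. The causes were not tested.

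Limma called 2 flanks as reported and with the replicate block. It called 1 with 1 peak added, without the filter, with median centring or without edge regions, 0 with a mean of at least 10 peaks or a trend on the mean, and 0 to 1 without 1 replicate. Over all units, 6 were lower and 1 higher as reported, 3 and 1 with 1 peak added or median centring, 5 and 0 without the filter, 4 and 1 without edge regions, 8 and 1 with the block, 0 and 1 with the trend and 0 and 0 with at least 10 peaks. Without PAF1-HA replicates 1, 2 and 3, 4, 1 and 7 were lower and 0 higher, and without any 1 SKIP-HA replicate 0 were called. The share difference in the 3 left flank was -0.029 to 0.33 without 1 replicate. Same-numbered libraries had correlations of 0.030, -0.026 and -0.0032 between their deviations over 1065 units, so the numbers were not taken as pairs, and not every library correlated best with its own number. The share test over same-numbered pairs, as a replicate block, gave -0.378 points with an exact p of 0.25, the smallest that 3 pairs allow. It used the same flanks, so it cannot separate the share difference from their choice either. Peak lists carry no depth, so a difference in sparse flanks rests on few calls.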

Other observations

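Chromosome 15, left out above, held 4 further stretches of at least 100 kb with 1359.47 kb in all, against 2046.7 kb on the other 12 chromosomes with stretches together. Density in their flanks over the rest of chromosome 15 was 0.467, 0.486 and 0.446 in the PAF1-HA libraries and 0.412, 0.428 and 0.403 in the SKIP-HA libraries, lower in each library than the ratios of 0.757 to 0.926 beside the other stretches. There the SKIP-HA ratios were the lower ones, opposite to the other chromosomes. These values come from 1 chromosome and were not tested.

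Outside chromosome 15, 23 further intervals of 50 to 100 kb held no peak of any list.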
